A study of Mus musculus with 37 samples.

Results

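Gene expression in irradiated mouse mammary glands was compared between 4 weeks and 1 week after exposure. The comparison used 18 of the study's 37 arrays, 9 of week 4 and 9 of week 1, taken by their labels: every array of an irradiated mouse at either week and no array of a sham-irradiated mouse. At each week 3 arrays came from mice given 100 cGy of gamma-rays, 3 from mice given 30 cGy of silicon ions (Si) and 3 from mice given 10 cGy of Si. Gamma-rays ionize tissue sparsely, and Si ions of 350 MeV/amu ionize it densely along each track. All mice were BALB/c females, bought as BALB/cJ and exposed at 10 weeks of age. In each mouse the inguinal gland of one side had been removed surgically, and the RNA came from the intact gland of the other side. Sham-irradiated mice of the same strain and age, with 4 arrays at week 4 and 3 at week 1, gave values set beside the irradiated ones.

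Week 1 glands were taken at Brookhaven, where the mice were exposed, and week 4 glands after the mice had travelled back to NYUMC. Time since exposure, the age of the mice and the place of collection therefore differ together between the groups and cannot be told apart. The labels call the replicates separate samples and say no more, so the p-values here reflect how much these samples differ from one another, and part of that spread may be technical.

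The mammary gland of an adult virgin mouse is a tree of ducts lined by luminal epithelium, which can secrete milk, over a layer of contractile basal cells. The ducts lie in a fat pad of white adipocytes with vessels, fibroblasts, immune cells and a lymph node. Several gene programmes in such tissue follow the state of the animal at the moment of collection. Immediate early genes, among them the AP-1 factors of the Fos family, are transcribed quickly and briefly after growth factors, stress or handling. Glucocorticoid-induced genes follow circulating corticosterone, and clock genes oscillate over the day, with Arntl in antiphase to the Per genes.

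Of 13174 genes tested, limma called 3549 (26.9%) at an adjusted p below 0.05, 1624 higher at week 4 (12.3%) and 1925 lower (14.6%). The differences were mostly small: the median over all genes was 0.00013 on the log2 scale, 15 of the called genes were at least 2-fold higher and 17 at least 2-fold lower. In 162 genes (1.23%) every week 4 array lay above every week 1 array, and in 363 (2.76%) every week 4 array lay below. The arrays were alike as a whole, with correlations between 0.973 and 0.993 among the 18. Of the sham arrays, week 4 replicate 1 and week 1 replicate 3 stood apart, with a median correlation with the other arrays of 0.971 and 0.970, against at least 0.980 for every other array of the study. Glands showed epithelium and fat at both weeks: the luminal keratin gene Krt18 lay between 9.35 and 10.4 at week 4 and between 9.07 and 9.54 at week 1, and the adipocyte hormone gene Adipoq between 11.03 and 11.58 at week 4 and between 11.24 and 11.65 at week 1, all as log2 expression values.

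**Figure D1:**
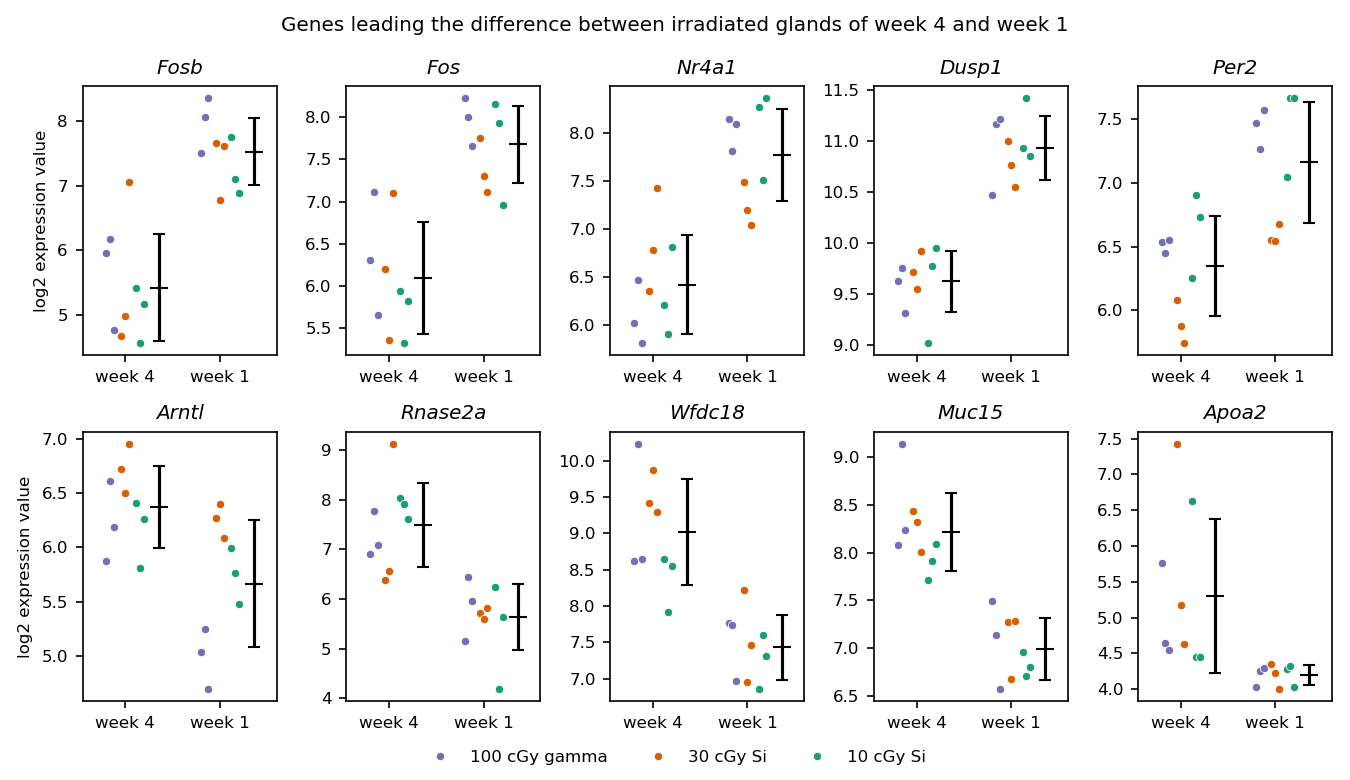
Log2 expression values of 10 genes in irradiated glands, week 4 on the left and week 1 on the right of each panel. Each point is 1 array, coloured by treatment (3 arrays per treatment and week), and the bars give the mean ± SD over 9 arrays. Dusp1 lay lower, and Muc15 and Apoa2 higher, in every week 4 array than in any week 1 array; in Apoa2 most week 4 arrays sat just above the week 1 range.

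The largest falls were in immediate early genes. Of 27 tested members, 14 fell, 1 rose and 12 were not called, and the median difference was −0.31, beside 0.00013 over all genes. The median was −0.37 after gamma, −0.14 after 30 cGy Si and −0.46 after 10 cGy Si. Among the 12 genes with the largest called falls, 6 were members of this list. The promoters of the 5 that stand in the RefSeq promoter table outside a chromosome not printed here are shown because these genes moved together. Each spans 300 bases around the annotated start, most of them before it (GRCm38.p6), and capitals mark TGACG on either strand, the half-site of the cAMP response element TGACGTCA, which contains it.
Fosb, chr7:19309996-19310295, minus strand: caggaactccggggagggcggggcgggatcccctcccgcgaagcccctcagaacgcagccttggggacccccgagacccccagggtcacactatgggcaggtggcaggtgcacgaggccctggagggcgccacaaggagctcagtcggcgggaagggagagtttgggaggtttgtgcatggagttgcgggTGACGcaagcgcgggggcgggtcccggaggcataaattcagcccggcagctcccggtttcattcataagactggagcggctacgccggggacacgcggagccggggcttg
Fos, chr12:85473640-85473939, plus strand: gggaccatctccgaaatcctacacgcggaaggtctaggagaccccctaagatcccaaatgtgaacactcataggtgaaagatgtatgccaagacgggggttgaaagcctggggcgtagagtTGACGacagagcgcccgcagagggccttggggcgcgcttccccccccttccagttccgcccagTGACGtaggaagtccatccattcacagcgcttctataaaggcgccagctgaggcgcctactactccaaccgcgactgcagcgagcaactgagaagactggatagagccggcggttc
Nr4a1, chr15:101266596-101266895, plus strand: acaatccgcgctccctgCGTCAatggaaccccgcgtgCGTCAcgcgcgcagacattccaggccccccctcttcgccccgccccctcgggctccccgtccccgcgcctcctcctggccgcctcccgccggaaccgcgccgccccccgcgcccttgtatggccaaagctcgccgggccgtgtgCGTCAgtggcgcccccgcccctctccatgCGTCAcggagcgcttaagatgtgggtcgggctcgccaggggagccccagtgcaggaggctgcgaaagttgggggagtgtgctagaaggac
Dusp1, chr17:26508423-26508722, minus strand: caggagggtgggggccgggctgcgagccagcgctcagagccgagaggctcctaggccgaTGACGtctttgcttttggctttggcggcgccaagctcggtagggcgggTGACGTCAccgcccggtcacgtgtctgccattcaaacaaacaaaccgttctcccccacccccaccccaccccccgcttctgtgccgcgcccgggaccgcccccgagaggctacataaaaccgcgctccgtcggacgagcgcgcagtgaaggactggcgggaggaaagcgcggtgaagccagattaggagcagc
Atf3, chr1:191183284-191183583, minus strand: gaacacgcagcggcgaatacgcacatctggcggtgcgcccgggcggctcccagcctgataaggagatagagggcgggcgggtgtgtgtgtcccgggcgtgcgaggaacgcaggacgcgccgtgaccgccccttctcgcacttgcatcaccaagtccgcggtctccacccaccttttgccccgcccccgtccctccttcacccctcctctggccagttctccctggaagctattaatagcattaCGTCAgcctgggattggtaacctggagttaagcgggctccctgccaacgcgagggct

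The half-site occurred 1 time in the windows of Fosb and Atf3, 2 times in that of Fos, 3 times in that of Dusp1 and 4 times in that of Nr4a1. It was present in 13 of the 21 immediate early genes that have a promoter in the table (61.9%), against 33.5% of the 10392 tested genes and 23% of all 27025 genes there. The whole element TGACGTCA was present in 2 of the 21 (9.52%), against 3.36% of tested genes. The motif was chosen after the genes were known to move, and a match describes the letters only.

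Fosb, an AP-1 subunit, had log2 values of 4.56, 5.17 and 7.06 (lowest, median, highest) at week 4, against 6.78, 7.61 and 8.35 at week 1. In 8 of 9 week 4 arrays Fosb lay below every week 1 array, and the remaining one was a 30 cGy Si array within the week 1 range. Fosb fell by 2.11 ± 0.29 on the log2 scale (SE), a 4.31-fold difference (adjusted p = 6.69e-05). Fos, another AP-1 subunit of the same family, had 5.33, 5.95 and 7.12 at week 4, against 6.96, 7.75 and 8.22 at week 1. The groups of Fos overlapped in 2 of the week 4 arrays, and Fos fell by 1.59 ± 0.24 (adjusted p = 0.000169).

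Dusp1, a phosphatase that switches off MAP kinases, separated the weeks completely. It had 9.02, 9.71 and 9.95 at week 4, against 10.5, 10.9 and 11.4 at week 1, and fell by 1.31 ± 0.14 (adjusted p = 8.33e-06). Egr1, a zinc finger factor of growth signals, also had no overlap, with 6.59, 7.18 and 7.73 at week 4 against 7.92, 8.52 and 8.97 at week 1 (fell by 1.24 ± 0.16, adjusted p = 3.95e-05). The nuclear receptor gene Nr4a1 fell by 1.35 ± 0.23 (adjusted p = 0.000392) and the stress factor gene Atf3 by 1.11 ± 0.17 (adjusted p = 0.000169), each with 8 of 9 week 4 arrays below every week 1 array. The only member that rose was Myc, a growth factor-induced transcription factor, with 8.60, 9.09 and 9.41 at week 4 against 8.05, 8.40 and 8.75 at week 1 (0.64 ± 0.10, adjusted p = 0.000297). Without single arrays, between 12 and 15 members fell.

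Within single treatments, Fosb differed by −2.34 after gamma, −1.78 after 30 cGy Si and −2.20 after 10 cGy Si, and Nr4a1 by −1.93, −0.39 and −1.75 in that order. In sham glands, which share no array with these, Fosb fell by 2.23 ± 0.51, Fos fell by 2.25 ± 0.45, Dusp1 by 1.18 ± 0.30 and Egr1 by 1.67 ± 0.32 (adjusted p between 0.00716 and 0.0237), and 6 members fell in all, or 1 without sham week 1 replicate 1. The median of the list in sham glands was −0.47, and between −0.57 and −0.28 without single sham arrays.

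Other genes with large falls stood in none of the early response lists. Hoxc8, a homeobox gene of trunk position, had 7.89, 8.47 and 8.92 at week 4, against 9.40, 9.79 and 10.2 at week 1. Those ranges did not overlap (fell by 1.29 ± 0.13, adjusted p = 3.68e-06). Tubb4a, a beta-tubulin gene, fell by 1.25 ± 0.12, Trp53i11, a p53-induced gene, by 1.23 ± 0.13, and Pim3, a survival kinase gene, by 1.07 ± 0.10, also with no overlap. Ccn1, which encodes a matrix signalling protein induced early by growth factors, fell by 1.27 ± 0.23 with 6 of 9 week 4 arrays below the week 1 range. In sham glands Trp53i11 fell by 1.30 ± 0.30 (adjusted p = 0.0168) and Pim3 by 0.74 ± 0.19 (adjusted p = 0.0252), while Hoxc8 differed by −0.55 ± 0.27 (adjusted p = 0.242) and Tubb4a by −0.48 ± 0.21 (adjusted p = 0.19).

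Glucocorticoid-induced genes were lower at week 4 as a group: 13 of 23 fell, 1 rose and 9 were not called, with a median of −0.28. Klf9, a zinc finger factor induced directly by the receptor, had 8.15, 8.33 and 8.55 at week 4, against 8.67, 8.99 and 9.27 at week 1, with no overlap, and fell by 0.64 ± 0.081 (adjusted p = 3.5e-05). Zbtb16, another receptor target, had 7.29, 9.02 and 9.51 at week 4, against 8.26, 9.54 and 9.94 at week 1. Its ranges overlapped widely and it fell by 0.65 ± 0.16 (adjusted p = 0.00639). The chaperone gene Fkbp5, which limits the receptor's own activity, fell by 0.43 ± 0.14 and Klf15, a regulator of amino acid and lipid metabolism, by 0.49 ± 0.10. Errfi1, a feedback inhibitor of EGF receptor signalling, fell by 0.60 ± 0.13 (adjusted p = 0.00273). Lcn2, an iron-binding secreted protein, was the member that rose (0.23 ± 0.076, adjusted p = 0.0369), a call lost without any 1 of 12 arrays.

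The number of falls in this list was 8 without 30 cGy Si week 1 replicate 2, without 10 cGy Si week 1 replicate 2 or without 10 cGy Si week 1 replicate 3, and it was 9 in the fit of all 37 arrays and 7 without the treatment block. Sham glands had a median of −0.086 and 1 fall, which was Dusp1. The sham median was −0.16 when week 1 replicate 3 was left out, and it was 0.0013 when week 1 replicate 2 was. Zbtb16 differed by 0.70 ± 0.31 in sham glands (adjusted p = 0.198). The irradiated change minus the sham change was −1.35 for Zbtb16, with an adjusted p of 0.412.

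Most called clock genes were lower, and Arntl was higher. Per2, a repressor of the clock, had 5.74, 6.45 and 6.91 at week 4, against 6.54, 7.27 and 7.67 at week 1, and fell by 0.81 ± 0.097 (adjusted p = 2.01e-05). Arntl, the activator that drives Per transcription, had 5.81, 6.41 and 6.95 at week 4, against 4.69, 5.76 and 6.40 at week 1, and rose by 0.71 ± 0.14 (adjusted p = 0.00168). Arntl differed by 1.23 after gamma, 0.47 after 30 cGy Si and 0.42 after 10 cGy Si. With the covariates for the mix of tissues in each array, Arntl was at 0.47 and its call was lost, and 5 clock genes fell.

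Of 17 clock genes, 7 fell, Arntl alone rose and 9 were not called. Cry2, a partner of the Per proteins, had no overlap between the weeks, with 7.14, 7.50 and 7.74 at week 4 against 7.79, 7.86 and 8.04 at week 1 (fell by 0.46 ± 0.070, adjusted p = 0.000146). Per1 fell by 0.67 ± 0.098, the output factor gene Tef by 0.57 ± 0.14, the repressor gene Bhlhe40 by 0.49 ± 0.13 and the nuclear receptor gene Nr1d2 by 0.45 ± 0.082. In sham glands 2 members fell, and Per2 differed by −0.24 ± 0.25 (adjusted p = 0.641). The median of the clock list was −0.32 in irradiated glands and −0.10 in sham glands. Leaving out single sham arrays put the sham median between −0.46 (week 4 replicate 1) and −0.040 (week 4 replicate 4). No source used here states the hour of collection. The windows of Per1 and Tef are shown with the E-box CACGTG in capitals, the site bound by the Arntl protein with its partner.
Per1, chr11:69098699-69098998, plus strand: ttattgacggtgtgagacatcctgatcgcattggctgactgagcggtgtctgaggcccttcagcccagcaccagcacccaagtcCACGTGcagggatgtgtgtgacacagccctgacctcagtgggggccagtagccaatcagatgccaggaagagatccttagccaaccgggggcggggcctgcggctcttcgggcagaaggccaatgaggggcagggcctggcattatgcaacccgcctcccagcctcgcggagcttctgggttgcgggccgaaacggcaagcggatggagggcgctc
Tef, chr15:81802423-81802722, plus strand: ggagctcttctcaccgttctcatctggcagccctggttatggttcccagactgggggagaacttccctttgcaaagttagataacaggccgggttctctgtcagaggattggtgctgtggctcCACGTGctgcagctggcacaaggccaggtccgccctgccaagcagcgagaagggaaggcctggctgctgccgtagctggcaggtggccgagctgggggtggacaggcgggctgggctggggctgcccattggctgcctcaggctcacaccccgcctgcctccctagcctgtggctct

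Each gene has 2 promoters in the table, and the first with the motif is shown. The E-box was present in 5 of the 15 clock genes that have a promoter there (33.3%), against 11.4% of tested genes.

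**Figure D2:**
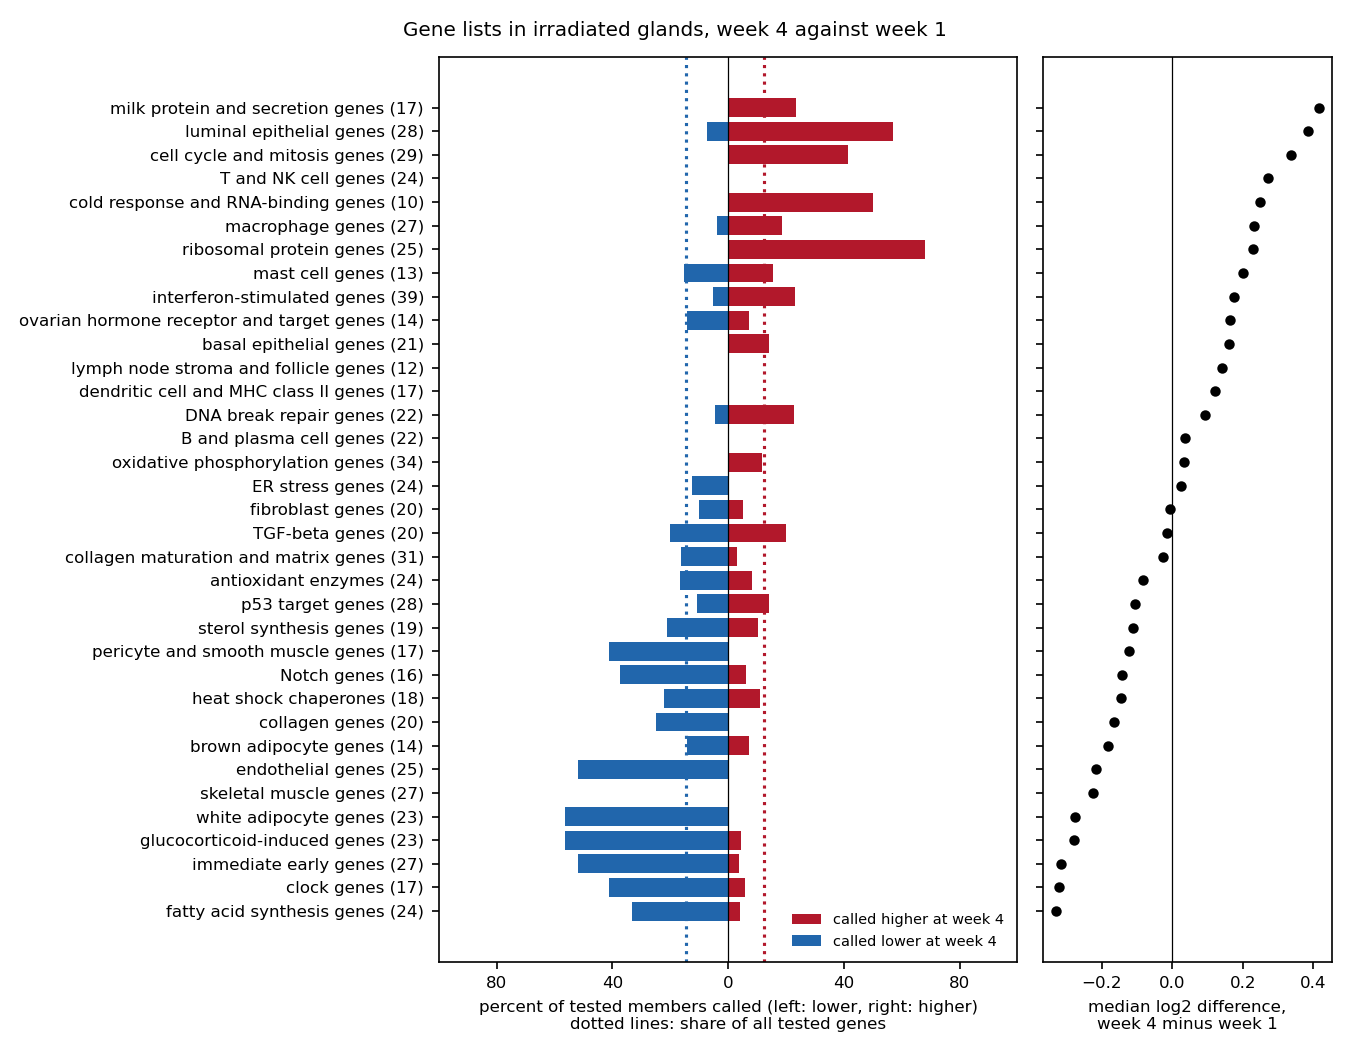
Gene lists with at least 10 tested members (number in brackets), ordered by median. The left panel gives the percent of tested members called higher (right of 0) or lower (left of 0) at week 4 than at week 1 in irradiated glands, with dotted lines at 12.3% and 14.6% for all genes, and the right panel the median log2 difference. White adipocyte, glucocorticoid-induced, immediate early and endothelial genes had over 50% of members called lower, and ribosomal protein and luminal epithelial genes over 50% called higher.

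Fat genes were lower at week 4. Of 23 white adipocyte genes, 13 fell and 10 were not called, with a median of −0.28. Lipe, the hormone-sensitive lipase gene, had 11.15, 11.37 and 11.41 at week 4, against 11.76, 11.83 and 11.98 at week 1. Its week 4 arrays all lay below its week 1 arrays (fell by 0.52 ± 0.049, adjusted p = 2.24e-06), although its second probe set differed by 0.11. Plin1, which coats the lipid droplet, also had no overlap, with 10.7, 10.9 and 11.1 at week 4 against 11.3, 11.5 and 11.7 at week 1 (fell by 0.61 ± 0.068, adjusted p = 1.11e-05). In tissue RNA, fewer cells of a type and less RNA per cell cannot be told apart.

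Sfrp5, a Wnt antagonist secreted by fat, fell by 1.18 ± 0.23, the imprinted gene Nnat by 0.92 ± 0.17, the natriuretic peptide clearance receptor gene Npr3 by 0.88 ± 0.25 and the insulin-responsive glucose transporter gene Slc2a4 by 0.72 ± 0.10. Adipoq (−0.057 ± 0.073, adjusted p = 0.615) and the fatty acid carrier gene Fabp4 (−0.13 ± 0.059, adjusted p = 0.105) were not called. Sham glands had a median of −0.049 in this list, and between −0.12 and 0.032 without single sham arrays. With covariates for the mix of tissues in each array, 6 members fell and the median was −0.10.

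Of 24 fatty acid synthesis genes, 8 fell, 1 rose and 15 were not called, with a median of −0.33. Srebf1, the transcription factor that drives this pathway, had 7.76, 7.90 and 8.05 at week 4, against 8.10, 8.33 and 8.60 at week 1, with no overlap (fell by 0.44 ± 0.067, adjusted p = 0.000148). Acss2, which makes acetyl-CoA from acetate, had 6.83, 7.35 and 8.10 at week 4, against 7.27, 8.16 and 8.44 at week 1 (fell by 0.61 ± 0.15, adjusted p = 0.00633). The phosphatidate phosphatase gene Lpin1 fell by 0.60 ± 0.092, and Dgat2, which makes the last step to triglyceride, by 0.47 ± 0.089. The median was −0.012 after gamma, −0.46 after 30 cGy Si and −0.46 after 10 cGy Si, against 0.20 in sham glands. The sham value was −0.12 without sham week 4 replicate 1. With the tissue covariates, 3 members fell.

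Sterol synthesis genes moved less, with a median of −0.11. Of 19 members, 4 were lower and 2 higher, beside 14.6% and 12.3% of all genes. Mvk, the mevalonate kinase gene, fell by 0.35 ± 0.087 and Lss, which closes the sterol rings, by 0.34 ± 0.089, while Cyp51, a demethylase further along the pathway, rose by 0.30 ± 0.085. Of 14 brown adipocyte genes, 2 fell and 1 rose, near or below the shares of all genes. The largest change was in the potassium channel gene Kcnk3 (fell by 0.64 ± 0.098, adjusted p = 0.00017). Antioxidant enzymes had 4 of 24 lower and 2 higher, near the shares of all genes (14.6% and 12.3%), and Sod3, the extracellular superoxide dismutase gene, was the largest change among them. Sod3 had 8.001, 8.44 and 8.72 at week 4, against 8.99, 9.39 and 9.50 at week 1, and fell by 0.92 ± 0.10 with no overlap (adjusted p = 1.35e-05). Gstm1, a glutathione transferase gene, fell by 0.49 ± 0.073, also with no overlap, and the catalase gene Cat by 0.36 ± 0.079.

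Genes of the vessel wall were lower at week 4. Of 25 endothelial genes, 13 fell and 12 were not called, with a median of −0.22. Robo4, an endothelial guidance receptor, had 6.54, 6.93 and 7.26 at week 4, against 7.74, 7.85 and 7.93 at week 1. No array overlapped, and Robo4 fell by 0.91 ± 0.068, a 1.88-fold difference (adjusted p = 2.49e-07). Gpihbp1, which holds lipoprotein lipase on capillaries, had 7.37, 7.55 and 7.82 at week 4, against 8.14, 8.26 and 8.64 at week 1 (fell by 0.70 ± 0.070, no overlap, adjusted p = 3.68e-06).

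Nos3, the endothelial nitric oxide synthase gene, fell by 0.63 ± 0.085 with no overlap, the tight junction gene Cldn5 by 0.65 ± 0.13, the transcription factor gene Sox18 by 0.52 ± 0.086 and the receptor gene Tie1 by 0.45 ± 0.082. In sham glands 6 members fell, or 3 without sham week 1 replicate 2, and 1 rose, among them Robo4 (fell by 0.71 ± 0.12, adjusted p = 0.00306) and Sox18 (fell by 0.59 ± 0.13, adjusted p = 0.0163), and the median was −0.27. With the tissue covariates, 11 members fell in irradiated glands and the median was −0.21.

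Of 17 pericyte and smooth muscle genes, 7 fell and 10 were not called. The adhesion gene Mcam fell by 0.38 ± 0.091, the proteoglycan gene Cspg4 by 0.44 ± 0.098 and the signalling regulator gene Rgs5 by 0.36 ± 0.087. The Notch list, of which some members act in vessels, had 6 of 16 lower and 1 higher. Notch4, the endothelial receptor, had 5.89, 6.23 and 6.46 at week 4, against 6.73, 6.99 and 7.44 at week 1, with no overlap (fell by 0.81 ± 0.095, adjusted p = 1.72e-05). Its ligand gene Dll4 fell by 0.61 ± 0.12 and the target gene Nrarp by 0.53 ± 0.13. In sham glands 4 Notch genes fell, Notch4 by 0.64 ± 0.13 (adjusted p = 0.00862) and Nrarp by 0.85 ± 0.23 (adjusted p = 0.0318).

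Among matrix genes, Timp3, an inhibitor of metalloproteinases, had 9.67, 10.0 and 10.2 at week 4, against 10.47, 10.62 and 10.98 at week 1. Its ranges did not overlap and it fell by 0.65 ± 0.061 (adjusted p = 2.24e-06), while in sham glands it differed by −0.13 ± 0.12 (adjusted p = 0.614). Lum, a collagen-binding proteoglycan gene, rose by 0.59 ± 0.10, with 8 of 9 week 4 arrays above every week 1 array. Of 31 collagen maturation and matrix genes, 5 fell and 1 rose, beside 14.6% and 12.3% of all genes. Without gamma week 4 replicate 2, 8 fell. Of 20 collagen genes, 5 fell and the median was −0.16, with 2 or 3 falls without any 1 of 12 arrays and 8 without 10 cGy Si week 4 replicate 1. Fibroblast genes had 2 of 20 lower and 1 higher, below those shares of all genes. TGF-beta genes had 4 of 20 lower and 4 higher, with the ligand gene Tgfb3 higher by 0.43 ± 0.076 and the corepressor gene Ski lower (fell by 0.35 ± 0.054).

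Luminal epithelial genes were higher at week 4. Of 28 luminal epithelial genes, 16 rose, 2 fell and 10 were not called, with a median of 0.38. Wfdc18, a secreted protease inhibitor of the mammary epithelium, had 7.92, 8.65 and 10.2 at week 4, against 6.86, 7.46 and 8.22 at week 1. In 8 of 9 week 4 arrays it lay above every week 1 array, and it rose by 1.59 ± 0.24, 3.01-fold (adjusted p = 0.000133). Prom1, a membrane protein of luminal progenitors, had 5.92, 6.28 and 6.95 at week 4, against 5.01, 5.47 and 5.86 at week 1, with no overlap (0.93 ± 0.14, adjusted p = 0.000134). The epithelial transcription factor gene Ehf rose by 0.70 ± 0.14, the keratin genes Krt7 by 0.69 ± 0.13, Krt8 by 0.55 ± 0.15 and Krt18 by 0.45 ± 0.12, and the adhesion gene Epcam by 0.43 ± 0.078.

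Foxa1, the factor that opens chromatin for the oestrogen receptor, went the other way. It had 7.55, 8.16 and 8.80 at week 4, against 8.61, 8.98 and 9.28 at week 1, and fell by 0.88 ± 0.15 (adjusted p = 0.000397). In sham glands Foxa1 fell by 1.16 ± 0.27 (adjusted p = 0.0177), and the luminal list had a median of −0.29 with 2 falls. That median was −0.71, with 11 falls, when sham week 1 replicate 3 was left out, and it was −0.020 when week 1 replicate 2 was. The irradiated change minus the sham change was 1.29 for Prom1 and 0.86 for Ehf, with adjusted p of 0.412 and 0.481. The mean of the list, with each gene centred over all 37 arrays, ranged over −0.20 to 0.54 at week 4 and −0.41 to −0.058 at week 1 in irradiated glands. It ranged over −0.44 to −0.066 at week 4 and −0.72 to 0.64 at week 1 in sham glands. With the tissue covariates, of which epithelial level is one, 4 luminal genes rose and 2 fell, and in the fit of all 37 arrays 6 rose and 2 fell.

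Milk protein and secretion genes had 4 of 17 higher, beside 12.3% of all genes, and a median of 0.42. In that list 1 or 2 were higher without any 1 of 11 arrays. Csn3, kappa-casein, had 8.12, 8.76 and 9.12 at week 4, against 7.22, 8.15 and 8.73 at week 1 (0.69 ± 0.17, adjusted p = 0.00601). Of 21 basal epithelial genes 3 rose, a share near the 12.3% of all genes. The count was 1 without any 1 of 6 arrays and 5 without gamma week 4 replicate 3. Of 14 ovarian hormone receptor and target genes 1 rose and 2 fell, beside 12.3% and 14.6% of all genes. Cited1, a coactivator of the oestrogen receptor, fell by 0.47 ± 0.14 (adjusted p = 0.0154).

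Muc15, a membrane mucin, had 7.71, 8.09 and 9.13 at week 4, against 6.57, 6.96 and 7.50 at week 1, and every week 4 array was higher. Muc15 rose by 1.22 ± 0.15 (adjusted p = 2.25e-05), by 1.41 after gamma, 1.17 after 30 cGy Si and 1.08 after 10 cGy Si, against 0.13 ± 0.41 in sham glands (adjusted p = 0.906). The tetraspanin gene Tspan1 rose by 1.07 ± 0.19, the gap junction gene Gjb2 by 1.01 ± 0.18 and the cornified envelope gene Sprr1a by 1.10 ± 0.34. Defb1, an antimicrobial peptide of epithelia, rose by 1.02 ± 0.33, a call lost without any 1 of 5 arrays.

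Rnase2a, an eosinophil ribonuclease, was the largest rise. It had 6.37, 7.62 and 9.12 at week 4, against 4.18, 5.72 and 6.45 at week 1, with 8 of 9 week 4 arrays above the week 1 range. Rnase2a rose by 1.85 ± 0.35, 3.61-fold (adjusted p = 0.000952), and by 2.37 ± 0.56 in sham glands (adjusted p = 0.0177). Hmcn1, a large basement membrane protein, rose by 1.02 ± 0.18, and its 76 other probe sets also lay above 0, with a median of 0.58. Apoa2, an apolipoprotein, had 4.46, 4.64 and 7.42 at week 4, against 4.00, 4.25 and 4.35 at week 1 (1.10 ± 0.34, adjusted p = 0.0246). No array overlapped, although 6 of the 9 week 4 arrays lay at 5.18 or below and the highest were 1 of 30 cGy Si (7.42) and 1 of 10 cGy Si (6.63). Ido1, an interferon-induced tryptophan-degrading enzyme, rose by 1.504 ± 0.52 (adjusted p = 0.041), a call lost without any 1 of 12 arrays, with values from 1.17 to 1.77.

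Cell cycle and mitosis genes were higher at week 4, most of all after 30 cGy Si. Of 29 members 12 rose and 17 were not called, with a median of 0.34. The median was 0.051 after gamma, 0.72 after 30 cGy Si and 0.17 after 10 cGy Si, against −0.090 in sham glands. The sham value was 0.17 without sham week 1 replicate 3. Ccnb2, a mitotic cyclin, had 5.57, 6.73 and 7.06 at week 4, against 5.28, 5.86 and 6.25 at week 1, and rose by 0.56 ± 0.17 (adjusted p = 0.0209). The spindle checkpoint kinase gene Bub1 rose by 0.51 ± 0.15 (adjusted p = 0.0208), by 1.11 after 30 cGy Si and 0.12 after gamma. Both kept their calls without any single array. The calls of Top2a and Mcm6 were each lost without any 1 of 9 arrays, that of Ccna2 without any 1 of 10 and that of Cdk1 without any 1 of 8.

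The difference between treatments in the change of these genes did not pass the F test of treatment by week, which called 0 of 13174 genes (982 at an unadjusted p under 0.05, smallest adjusted p 0.603). The number of rises was 7 without 30 cGy Si week 1 replicate 1 or 2, or without 30 cGy Si week 4 replicate 1 or 2. With the tissue covariates 1 member rose and the median was 0.17, and 2 rose in the fit of all 37 arrays. The calls of Bub1 and Ccnb2 were lost in both of these settings. The filter at the 50th percentile kept only 8 of the 29 members, of which 3 rose, with a median of 0.35. The other members had mean values below that of the median gene. Among DNA break repair genes, 5 of 22 rose and 1 fell, beside 12.3% and 14.6% of all genes. The end-joining gene Xrcc5 rose by 0.35 ± 0.074, the histone gene H2ax by 0.33 ± 0.096 and the damage kinase genes Atm by 0.25 ± 0.074 and Atr by 0.20 ± 0.048, while the recombination gene Xrcc3 fell by 0.65 ± 0.10 (adjusted p = 0.000177) and by 0.62 ± 0.17 in sham glands (adjusted p = 0.0377).

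Of 28 p53 target genes, 4 rose and 3 fell, shares near those of all genes (12.3% and 14.6%). Cdkn1a, the cell cycle inhibitor p21, had 8.53, 8.89 and 9.24 at week 4, against 8.98, 9.38 and 9.74 at week 1, with 6 of 9 week 4 arrays below the week 1 range. Cdkn1a fell by 0.55 ± 0.12 (adjusted p = 0.00207) and is also in the glucocorticoid-induced list. Phlda3, a repressor of AKT signalling, fell by 0.58 ± 0.10 (adjusted p = 0.000537), and by 0.71 after gamma, 0.75 after 30 cGy Si and 0.28 after 10 cGy Si. The receptor gene Eda2r (−0.35 ± 0.15, adjusted p = 0.0973), Ccng1 (−0.20 ± 0.083, adjusted p = 0.0853) and Mdm2, the ligase that degrades p53 (−0.045 ± 0.064, adjusted p = 0.651), were not called. Sesn1, a stress sensor of the same pathway, rose by 0.31 ± 0.073 (adjusted p = 0.00446). In sham glands Cdkn1a differed by 0.16 ± 0.28 and Phlda3 by −0.55 ± 0.26.

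Ribosomal protein genes were the list with the highest share of rises: 17 of 25 rose and 8 were not called, with a median of 0.23. Rpl5 had 10.3, 10.4 and 10.7 at week 4, against 9.65, 9.90 and 10.1 at week 1. Rps18 had 10.5, 10.7 and 10.8 at week 4, against 10.0, 10.1 and 10.4 at week 1. Neither gene's arrays overlapped between the weeks, nor did those of Rpl6, Rpl8 and Rps9. Rpl5 rose by 0.56 ± 0.060 (adjusted p = 7.08e-06) and Rps18 by 0.49 ± 0.062 (adjusted p = 3.4e-05). The list's median was 0.17 after gamma, 0.26 after 30 cGy Si and 0.22 after 10 cGy Si, against −0.021 in sham glands, where it lay between −0.078 and 0.056 without single arrays. With the tissue covariates 7 members rose. Ribosomal protein transcripts have many processed pseudogenes, so probe sets may share sequence with them.

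Cold response and RNA-binding genes, which act largely in splicing, had 5 of 10 higher. Hnrnpdl had no overlap between the weeks (0.36 ± 0.056, adjusted p = 0.000174), and the splicing kinase genes Clk1 rose by 0.29 ± 0.068 and Clk4 by 0.26 ± 0.062. Oxidative phosphorylation genes had 4 of 34 higher, a share near the 12.3% of all genes, or 8 without 10 cGy Si week 4 replicate 2. Ndufb8, a subunit of complex I, rose by 0.36 ± 0.082, and by 0.78 ± 0.18 in sham glands (adjusted p = 0.0162).

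Stress genes were called in both directions. Of 18 heat shock chaperone genes 4 fell and 2 rose, beside 14.6% and 12.3% of all genes. Without 10 cGy Si week 1 replicate 3, 2 fell. Bag3, a cochaperone, fell by 0.41 ± 0.068 with no overlap, and the mitochondrial chaperonin gene Hspe1 rose by 0.37 ± 0.071. Of 24 endoplasmic reticulum stress genes, 3 fell, against 14.6% of all genes, among them Xbp1, the transcription factor of that response (fell by 0.30 ± 0.055, adjusted p = 0.000728), and Chac1, a glutathione-degrading enzyme (fell by 0.67 ± 0.16, adjusted p = 0.00454).

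Interferon-stimulated genes had 9 of 39 higher and 2 lower, beside 12.3% and 14.6% of all genes, with a median of 0.17. With the tissue covariates 3 were higher and 1 lower, and the calls of Ifit3 and Psmb8 were lost. Rsad2, the antiviral protein viperin, had 5.52, 6.27 and 6.99 at week 4, against 5.15, 5.59 and 5.98 at week 1, and rose by 0.72 ± 0.17 (adjusted p = 0.00501). Ifit3 rose by 0.86 ± 0.27 and the immunoproteasome gene Psmb8 by 0.47 ± 0.10. Lgals3bp, a secreted glycoprotein, fell without overlap, with 9.65, 9.79 and 10.2 at week 4 against 10.4, 10.6 and 11.1 at week 1 (fell by 0.83 ± 0.087, adjusted p = 6.41e-06), and by 0.72 ± 0.14 in sham glands (adjusted p = 0.00767). The median of the list was −0.012 after gamma, 0.26 after 30 cGy Si and 0.32 after 10 cGy Si.

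Of 27 macrophage genes, 5 rose and 1 fell, beside 12.3% and 14.6% of all genes. However, 11 rose without gamma week 1 replicate 2, and 3 rose without any 1 of 8 other arrays. The lysosomal protease gene Ctss rose by 0.71 ± 0.17 and the chemokine gene Ccl8 by 1.01 ± 0.29 (adjusted p = 0.0161), while the transcription factor gene Maf fell by 0.47 ± 0.11. Mast cell genes had 2 of 13 higher and 2 lower, near the shares of all genes. Mrgprb1, a mast cell receptor, rose by 0.54 ± 0.15 and Hdc, which makes histamine, fell by 0.41 ± 0.11. Of 7 tested neutrophil and alarmin genes 2 rose, of 2 erythroid genes 1 and of 6 skin and hair follicle genes 1, Sprr1a. These lists are too small to read against the 12.3% of all genes. Nerve and Schwann cell genes had 1 of 9 lower, beside 14.6% of all genes.

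Lymphocyte and muscle genes were not called and varied widely between single arrays. Of 24 T and NK cell genes, 22 B and plasma cell genes, 12 lymph node genes, 17 dendritic cell genes and 27 skeletal muscle genes, limma called 0 in either direction (1 gene of each list at an unadjusted p under 0.05, and 0 of skeletal muscle). The centred mean of T and NK cell genes ranged over −1.03 to 2.12 at week 4 and −0.89 to 1.65 at week 1, and that of skeletal muscle genes over −1.47 to 2.58 at week 4 and −1.54 to 2.71 at week 1. Within treatments their medians went different ways. T and NK cell genes differed by 1.37 after gamma, 0.40 after 30 cGy Si and −0.82 after 10 cGy Si, and skeletal muscle genes by −2.14, 0.12 and 1.08 in that order. The tissue covariates are averages, per array, over the gene lists of lymphocytes, of muscle, of epithelium and of brown fat. With them the comparison over all treatments called 1100 genes higher and 1320 lower, and that within gamma called 0 genes (2126 at an unadjusted p under 0.05), against 55 higher and 59 lower within 30 cGy Si and 96 higher and 246 lower within 10 cGy Si.

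**Figure D3:**
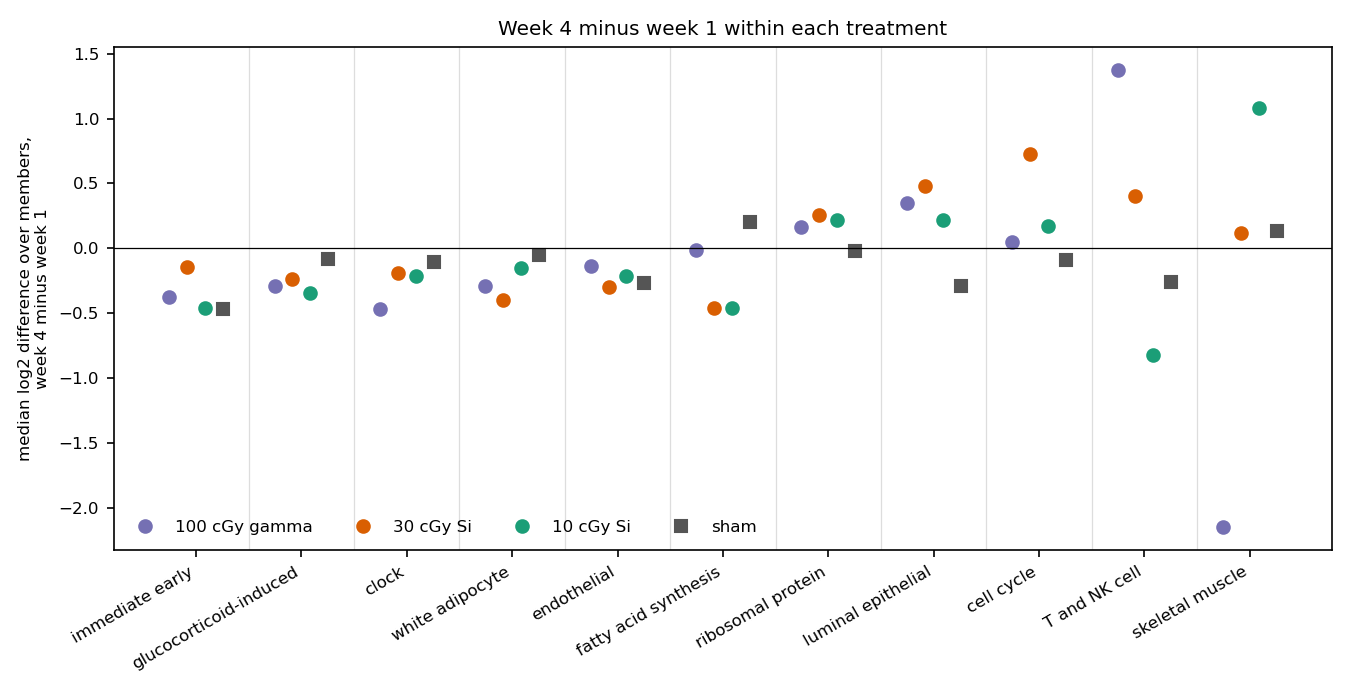
Median log2 difference, week 4 minus week 1, over the tested members of 11 gene lists, within each irradiated treatment (circles, 3 arrays per week) and in sham glands (squares, 4 and 3 arrays). Immediate early, glucocorticoid-induced, clock, white adipocyte and endothelial genes lay below 0 in all 4. Ribosomal protein, luminal and cell cycle genes lay above 0 in the irradiated treatments and below 0 in sham glands. Fatty acid synthesis genes lay below 0 in the irradiated treatments and above 0 in sham glands. T and NK cell and skeletal muscle genes had no common sign. The sham median of the glucocorticoid-induced, white adipocyte, ribosomal protein, cell cycle and fatty acid synthesis lists changed sign when some single sham arrays were left out.

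The 3 treatments, which share no arrays, gave the same sign for most called genes. Of the 1624 genes called higher, 1584 lay above 0 in all 3, and of the 1925 called lower, 1897 lay below 0 in all 3. Since these genes were called on the mean of the 3 treatments, a shared sign is partly fixed by that choice. Over all tested genes, the week changes after gamma and after 30 cGy Si had a correlation of 0.53. The correlation was 0.48 between 30 and 10 cGy Si, but 0.043 between gamma and 10 cGy Si. With 3 arrays a week, 331 genes rose after gamma (2.51%) and 504 fell (3.83%), 406 rose after 30 cGy Si (3.08%) and 707 fell (5.37%), and 225 rose after 10 cGy Si (1.71%) and 430 fell (3.26%). Without single arrays these counts were as low as 119 higher (without gamma week 1 replicate 1) and 184 lower (without gamma week 1 replicate 3) for gamma, 170 higher (without week 4 replicate 2) and 297 lower (without week 1 replicate 2) for 30 cGy Si, and 59 higher and 173 lower (both without week 4 replicate 3) for 10 cGy Si. Called in all 3 were 47 of the higher and 146 of the lower genes. The 5 genes with the smallest p in the F test of treatment by week were Trim65, Iqgap3, H2bc3, Zscan29 and Zfp641, none of them called by that test. Trim65, a ubiquitin ligase gene, differed by 0.0057 after gamma, −0.39 after 30 cGy Si and −0.82 after 10 cGy Si.

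Sham glands of the same weeks moved in the same direction for most of these genes. In sham glands 254 genes rose (1.93%) and 512 fell (3.89%), or 76 and 160 without week 1 replicate 1, 114 and 223 without week 1 replicate 2, and 115 and 366 without week 4 replicate 3. Of the genes called higher in irradiated glands, 1249 (76.9%) lay above 0 in sham glands, beside 46.7% of all genes, and of those called lower 1627 (84.5%) lay below 0, beside 53.3% of all genes. Calls in both numbered 166 higher, which is 10.2% of the irradiated and 65.4% of the sham calls, and 400 lower, which is 20.8% and 78.1%.

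The change in irradiated glands minus the change in sham glands, tested on 25 arrays, was called in 0 genes (1297 at an unadjusted p under 0.05, smallest adjusted p 0.202). The median SE of that difference was 0.17, against 0.080 for the change in irradiated glands alone. Without sham week 1 replicate 3, 23 genes had a higher and 1 a lower difference, and without sham week 4 replicate 4, 1 had a lower one. Cenpm, a centromere gene, had an irradiated change of 0.33 ± 0.092 against a sham change of −0.43 ± 0.12, and Pcsk6, a proprotein convertase gene, had −0.41 ± 0.070 against 0.39 ± 0.13. The chemokine gene Ccl11 differed by −0.24 ± 0.076 in irradiated glands, against 0.64 ± 0.15 in sham glands, and the angiotensin-converting enzyme gene Ace by −0.089 ± 0.063 against 0.53 ± 0.10. These 4 differences had the smallest adjusted p, 0.202. Cd82, a tetraspanin gene, Fam234b, Ankrd16 and Prlh also had positive differences and Slc43a3 and Ugp2 negative ones, with adjusted p between 0.334 and 0.412.

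**Figure D4:**
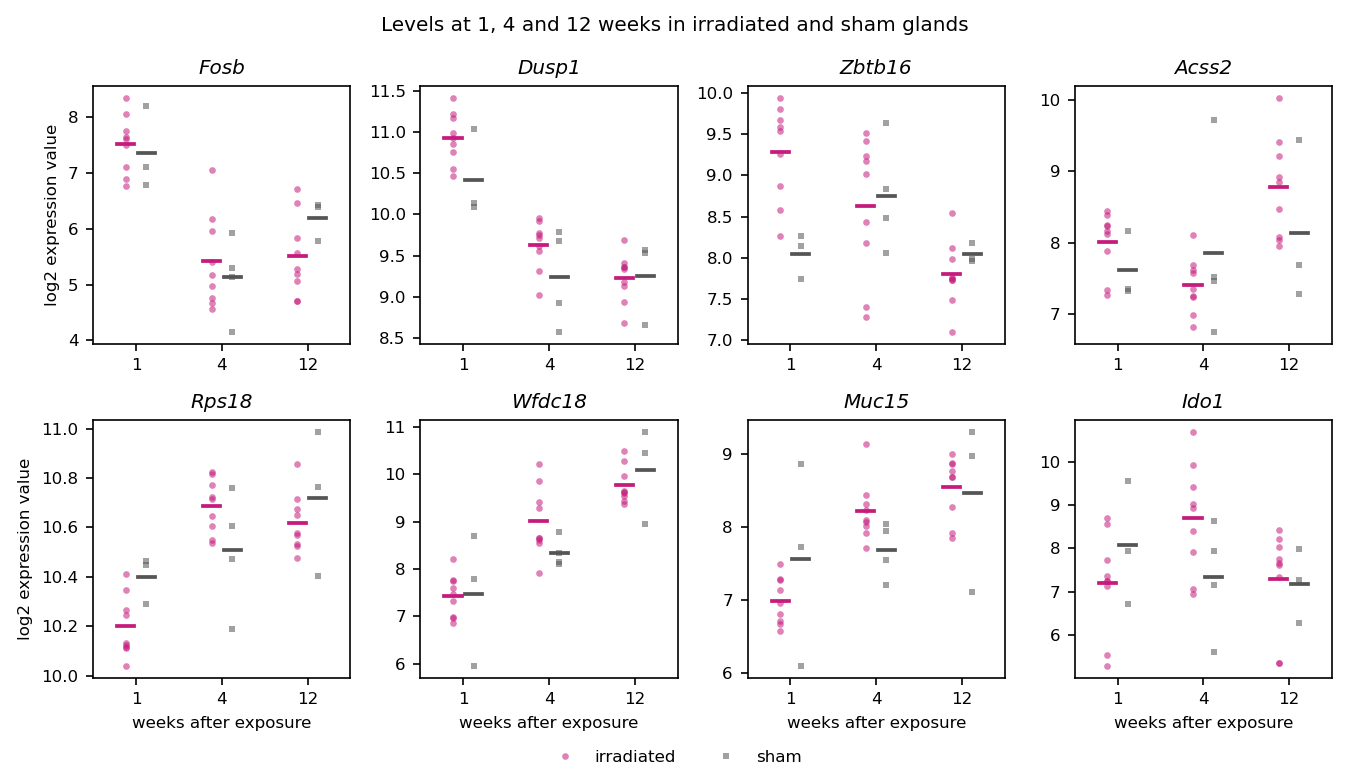
Log2 expression values of 8 genes at 1, 4 and 12 weeks after exposure in irradiated glands (circles, 9 arrays a week) and sham glands (squares, 3, 4 and 3 arrays), with a line at each mean. Fosb and Dusp1 stood highest at week 1 in both kinds of gland, Wfdc18 had a higher mean at each later week in irradiated glands, and Acss2 in irradiated glands was lowest at week 4 and highest at week 12.

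Glands of week 12, like those of week 4, were collected at NYUMC, and the week 4 arrays serve both comparisons. Between week 12 and week 4 limma called 254 genes higher (1.93%) and 229 lower (1.74%) in irradiated glands. Fosb differed by 0.09, Dusp1 by −0.39, Nr4a1 by −0.05 and Robo4 by −0.15 between these weeks, with adjusted p from 0.116 to 0.923, and the immediate early list had a median of −0.0024. Per1 fell further, by 0.88 (adjusted p = 0.00266), as did Zbtb16 by 0.83 (adjusted p = 0.011) and Cdkn1a by 0.60 (adjusted p = 0.00279). Acss2 rose by 1.37 (adjusted p = 0.00143) and Cyp51 by 1.00 (adjusted p = 0.000106), and the medians of the fatty acid and sterol synthesis lists were 0.55 and 0.61. Rps18 (−0.07), Muc15 (0.33) and Wfdc18 (0.75) were not called.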

How the data were processed

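Glands were profiled on Affymetrix whole-transcript arrays. The authors deposited log2 expression values for each probe set, computed with RMA in oligo, per the submitters' processing notes; versions are not given in the sources used here. Of 35556 probe sets, 21218 had 1 gene symbol; the probe set with the highest mean over 37 arrays stood for each of 18820 genes, and 13174 with a mean above the 30th percentile (4.04) were tested. No value was missing, and precision is limited by the number of arrays.

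Week 4 minus week 1 was fitted with limma 3.58.1 (R 4.3.3; lmFit, eBayes) on 18 arrays with treatment as a block. Adjusted p-values are Benjamini-Hochberg over all tested genes, and a call is an adjusted p under 0.05. Differences within treatments, an F test of treatment by week, the sham change, the irradiated change minus the sham change, and week 12 minus week 4 were separate limma contrasts. Errors are standard errors. On simulated data the week comparison recovered 86.8% of genes changed 1.5-fold and 93.6% of those changed 2-fold.

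The 39 gene lists and the comparison were chosen with earlier results of these data known. The lists hold 864 matched entries, 795 of them tested. Named genes were the 12 largest called differences per direction, passing over predicted genes, pseudogenes, small RNAs, and receptor gene segments, up to 6 called members of each list, and the 5 smallest p-values of the F test and, per direction, of the difference from sham. The p53 targets Eda2r, Phlda3, Ccng1, Mdm2 and Cdkn1a were given in any case. Adipoq, Fabp4, Fkbp5, Klf15, Krt8, Krt18, Epcam, Myc and Nr1d2 were added after their values were seen. Replicate numbers were not taken to pair samples. Of 9 pairs of the same number, 5 had correlated deviations over 0.1, and in 5 the same number was the best match. With 3 arrays per group this check cannot decide whether the numbers pair samples. Alternatives were other filters, probe set averaging, quantile normalization, eBayes with trend, array weights, tissue covariates, a replicate block, a fit of all arrays, no treatment block, and leaving out each array. Promoters came from RefSeq (GRCm38.p6). The genome build of the arrays is not given in the sources used here. Coordinates are therefore printed only for the promoter windows.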

Additional observations from a re-analysis of the deposited data

Results flagged for a closer look

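In 24 of 370 groups of 9 irradiated arrays (6.49%), 1 array lay far from the other 8 by Dixon's criterion, which chance alone gives in about 1 group in 20. All values are log2 expression.

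At week 4, gamma replicate 2 was high for Kit (9.12), Notch3 (7.80) and Smtn (8.31) and low for Idi1 (6.00) and Cox7b (10.93), and gamma replicate 3 was low for Col15a1 (7.87). The 30 cGy Si replicate 3 was high for Hmcn1 (9.86) and low for Edem1 (8.81), 30 cGy Si replicate 2 was low for Slc43a3 (9.50), and 10 cGy Si replicate 3 was high for Hspb8 (8.57).

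At week 1, 10 cGy Si replicate 2 was high for Acacb (9.08), Bag3 (8.41) and Gpihbp1 (8.64) and low for Ccnb2 (5.28). Gamma replicate 3 was high for Eda2r (5.64), Fbln1 (8.88) and Sfrp5 (8.53). Gamma replicate 2 was high for Hmcn1 (8.84) and Sprr1a (6.12) and low for Gstp1 (8.72), and gamma replicate 1 was high for Lcn2 (10.99) and Smtn (8.62). The 10 cGy Si replicate 1 was high for Rps19 (9.25), and 10 cGy Si replicate 3 was low for Itga6 (9.21).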

How the results depend on the processing

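The counts of the comparison of week 4 with week 1 stayed within 1.5 times under all 10 other settings, at 1100 to 1832 genes higher and 1320 to 2114 lower, and without single arrays at 1339 to 1651 higher and 1678 to 1930 lower. The genes called changed more than the counts. Of the 3549 calls, 1881 were also made with tissue covariates, 2671 in the fit of all 37 arrays and 3018 to 3479 under the other settings. With a replicate block, whose numbers were not taken to pair the samples, 1402 were higher and 1766 lower. Of 176 named genes that were called, 140 kept the call without any single array and 82 under every setting. With tissue covariates Elf5 turned to −0.012, Idi1 to 0.073, Krt14 to −0.020, Ugp2 to 0.029 and Zscan29 to −0.072, and Iqgap3, at 0.03 and not called, ranged from −0.055 to 0.14 without single arrays. Elf5 and Krt14 belong to the lists averaged into the epithelial covariate, so a shift toward 0 in them was partly built in. The cause of the other shifts was not tested. Sham list medians without single sham arrays were computed after seeing the data.

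Smaller comparisons moved more. Without a filter on low values, 194 genes were higher within gamma, 132 within 10 cGy Si and 164 in sham glands. With array weights, 729 were higher and 1154 lower within 30 cGy Si, 462 and 689 within 10 cGy Si, and 549 and 894 in sham glands. With tissue covariates limma called 0 higher and 0 lower within gamma (2126 at an unadjusted p under 0.05), 55 and 59 within 30 cGy Si, and 96 and 246 within 10 cGy Si. Leaving out single arrays gave 119 to 260 higher and 184 to 454 lower within gamma, 170 to 267 and 297 to 576 within 30 cGy Si, 59 to 196 and 173 to 297 within 10 cGy Si, and 76 to 275 and 160 to 576 in sham glands, with fewer samples in each fit. The irradiated change minus the sham change then had 0 to 23 higher and 0 to 1 lower.

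Week, place of collection and age cannot be told apart, and signal near background limits genes with low values.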

Other observations

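Small nucleolar RNAs, which guide chemical modification of ribosomal RNA and are mostly cut from introns of host genes, stood outside the lists and were chosen after their values were seen. Of 53 tested, 27 rose at week 4 in irradiated glands (50.9%, beside 12.3% of all genes) and 3 fell (5.66%), with a median of 0.26. In sham glands 3 rose and 6 fell, with a median of −0.094. Snora16a rose by 1.08 ± 0.066 and Snord52 by 0.83. Of 124 tested microRNA genes 13 rose (10.5%) and 7 fell (5.65%).

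Terc, the RNA template of telomerase, had log2 values of 7.01, 7.49 and 8.15 (lowest, median, highest) at week 4, against 5.81, 6.41 and 7.18 at week 1. It rose by 1.06 ± 0.17 (limma, adjusted p = 0.00025), and differed by 0.20 in sham glands.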
